A study of Homo sapiens with 14 samples.

Results

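MDA-MB-231 cells, an established human line from a triple-negative breast cancer with mesenchymal features, were treated with the BET inhibitor JQ1 (1 µM, 24 h) and compared with cells given the solvent DMSO. The comparison took the 2 libraries labelled JQ1 and the 2 labelled DMSO, 4 of the 14 RNA-seq libraries of the series. The other 10 libraries came from transfected cells of the same line, with control siRNA, with 2 siRNA mixes against YAP and TAZ (48 h before harvest) or with 2 siRNA mixes against BRD genes (72 h before harvest), 2 libraries each. No harvest time is given for the DMSO or the control siRNA libraries. Whether the JQ1 and DMSO cells were transfected is not given. Total RNA was depleted of ribosomal RNA before stranded library preparation, so RNAs without a poly(A) tail were kept, and by its title the series asks what BET proteins do in YAP/TAZ-dependent expression. A single cell line, a single dose and a single time limit what the comparison covers. Nothing in the labels states whether the libraries of a group came from separate cultures, and the p-values therefore reflect only the spread between libraries, which may be technical.

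BET proteins carry paired bromodomains that bind acetylated lysines of histones and help to bring P-TEFb, the kinase complex that releases paused RNA polymerase II, to promoters and enhancers. JQ1, a thienotriazolodiazepine, fills the pocket for acetyl-lysine and displaces BET proteins from chromatin. HEXIM1 holds P-TEFb in an inactive complex, and its mRNA is widely used as a marker of BET inhibition. YAP and TAZ, transcriptional partners of the TEAD factors that Hippo signalling restrains, drive genes such as CTGF, CYR61 and ANKRD1.

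The deposited values are CPM (reads of a gene relative to the library's total) with a further scaling between libraries, called scaled CPM here, and are not divided by gene length. They measure shares of the sequenced RNA: a change of total RNA per cell does not show in them, and fewer cells of a type cannot be told apart from less RNA per cell. Whole read counts could be recovered, and the 4 libraries held 27373406 to 37311326 reads in genes. The cell line's own markers were high: the 9 tested of 10 summed to 9110 and 9155 scaled CPM with DMSO and 12640 and 12570 with JQ1, with VIM, CD44, FN1 and CAV1 among them. Of 7 genes listed as low in this line 4 were tested, and they summed to 70 and 74.8 with DMSO and 107 and 104 with JQ1, most of it ERBB2 and EPCAM. The other 2 were near 0, GATA3 at 1.52 and 2.1 with DMSO and 1.32 and 1.23 with JQ1 and FOXA1 at 0.519 and 0.608 with DMSO and 0.602 and 0.843 with JQ1, and ESR1, PGR and CDH1 were not analysed here. Of 12 leukocyte markers 5 were tested, and they summed to 124 and 126 with DMSO and 139.7 and 134 with JQ1, nearly all of it CD68 and CD74. Of 12 fibroblast and endothelial markers 4 were tested, and their sum lay between 12.2 and 18.9 in the 4 libraries.

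JQ1 changed most measured transcripts, in nearly equal numbers up and down. Of 13674 genes tested, 5136 (37.6%) were called higher and 4968 (36.3%) lower with JQ1, where called means a Benjamini-Hochberg adjusted p under 0.05 from limma on log2(scaled CPM + 1). Either call covered 73.9% of genes. The fold change reached 2-fold in 1171 genes that rose (8.56%) and 1223 that fell (8.94%). The median log2 fold change over all genes was 0.01. In 12010 genes (87.8%) the JQ1 libraries did not overlap with the DMSO libraries. A bare value in parentheses after a gene name is its log2 fold change, JQ1 against DMSO, and the levels of a gene are given in scaled CPM for replicates 1 and 2 in turn. Fold changes on this scale understate the change of genes at low level. With calls this common, a gene list is described below by how far its counts and median depart from these shares.

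**Figure D1:**
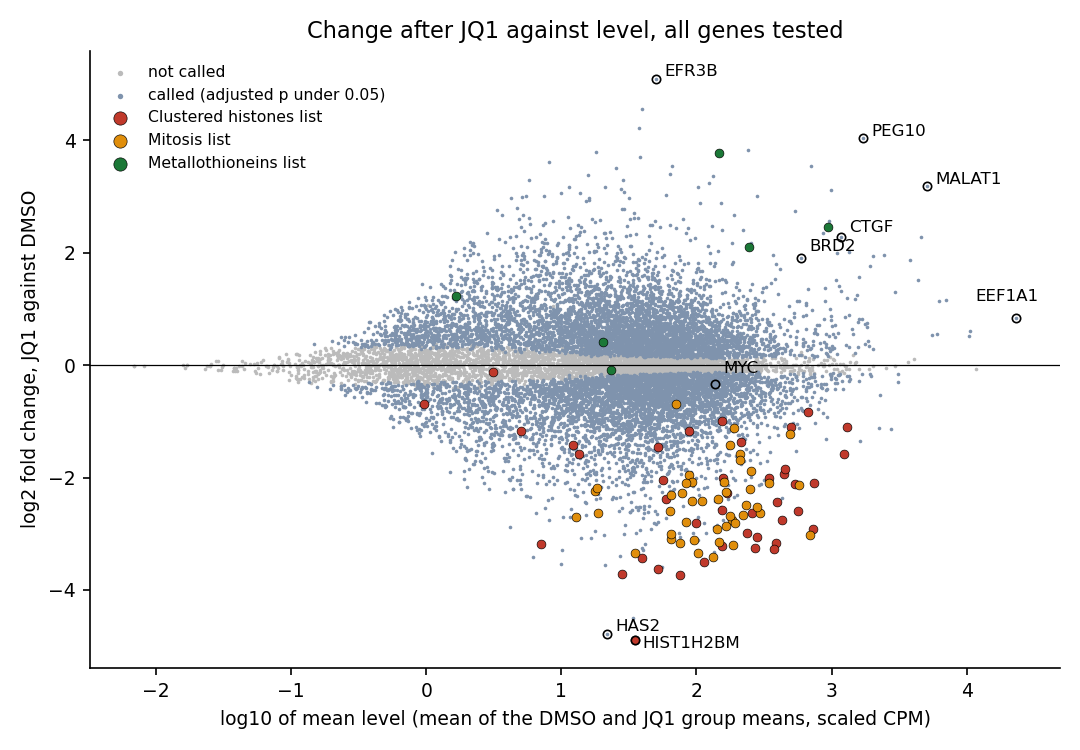
Each point is a gene tested, with its mean level (log10 of scaled CPM) on the horizontal axis and its log2 fold change, JQ1 against DMSO, on the vertical axis, blue where called and grey where not; the metallothionein list is green, and 6 genes at 0 in all 4 libraries are not drawn. The clustered histones (red) and the mitosis list (orange) lie below zero across the range of levels, with HIST1H2BM at -4.89 and EFR3B at the top at 5.1.

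BRD2 and HEXIM1 rose clearly with JQ1, BRD3 slightly, and the core of P-TEFb did not pass the test. BRD2, a BET protein gene, stood at 241 and 257 with DMSO and 919 and 955 with JQ1. The JQ1 libraries lay 3.77-fold above the DMSO libraries without overlap (limma log2 fold change 1.91, SE 0.0643, adjusted p = 3.5e-16). BRD3, a second member, was at 28 and 29 with DMSO and 35.2 and 34.4 with JQ1, a small rise (limma log2 fold change 0.28, SE 0.0864, adjusted p = 0.00625). HEXIM1, the inhibitor of P-TEFb, stood at 71 and 80.4 with DMSO and 213 and 225 with JQ1 and rose in both JQ1 libraries (limma log2 fold change 1.52, SE 0.0659, adjusted p = 1.83e-14). The kinase of P-TEFb, CDK9, was at 44.8 and 47.9 with DMSO and 43.8 and 46.3 with JQ1 (log2 fold change -0.04, limma adjusted p = 0.586, its libraries overlapping), and its cyclin CCNT1 had a log2 fold change of -0.13 (limma adjusted p = 0.0755). The other cyclin partner, CCNT2, fell (-0.58).

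Among the 35 elongation genes tested, 14 were called higher and 10 lower, close to the shares of all genes, with a median of 0.06 whose sign turns with a filter at a level of 5. The rises included MLLT3, a YEATS-domain reader of the super elongation complex (1.39), POLR2A, the largest subunit of RNA polymerase II (0.98), the scaffolds AFF1 (0.74) and AFF4 (0.80), and the PAF1 complex subunits CTR9 (0.78) and RTF1 (0.64). AFF3, a relative of AFF4, fell (-0.96), as did NELFCD of the pausing complex (-0.53). The 7SK partners of HEXIM1 did not pass the test, LARP7 with a log2 fold change of -0.04 and MEPCE with 0.06 (limma adjusted p = 0.581 and 0.377). Of 33 other bromodomain genes tested, 10 rose (30.3%) and 15 fell (45.5%), with a median of -0.08 whose sign turns under quantile normalization. ATAD2, an ATPase of dividing cells, went from 382 and 375 to 115 and 118 (limma log2 fold change -1.69, SE 0.0629, adjusted p = 1.63e-15). SP140, a bromodomain protein known from immune cells, fell from a low level (7.07 and 7.9 with DMSO and 1.16 and 1.09 with JQ1; -1.99). The Mediator, which bridges enhancers and polymerase, had 10 of 33 subunit genes higher (30.3%) and 14 lower (42.4%), near the shares of all genes. Its median was -0.05, with a sign that turns under quantile normalization. MED22 fell (-0.94) and MED20 rose (0.60).

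MYC, the growth-driving transcription factor whose loss is the textbook response to JQ1 in blood cancers, fell only slightly here. It was at 152 and 155 with DMSO and 123 and 119.6 with JQ1, and the groups did not overlap (limma log2 fold change -0.34, SE 0.0603, adjusted p = 3.83e-05). The antagonists of MYC that share its partner MAX moved more. MXD4 stood at 19.3 and 20.3 with DMSO and 195 and 176 with JQ1, 9.37-fold higher with JQ1 (limma log2 fold change 3.16, SE 0.0809, adjusted p = 6.47e-18), and MXI1 (1.06) and MXD1 (0.71) also rose. MAX (-0.32), MXD3 (-0.80) and MLX (-0.56) fell. In all, 8 of the 12 network genes tested rose and 4 fell.

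**Figure D2:**
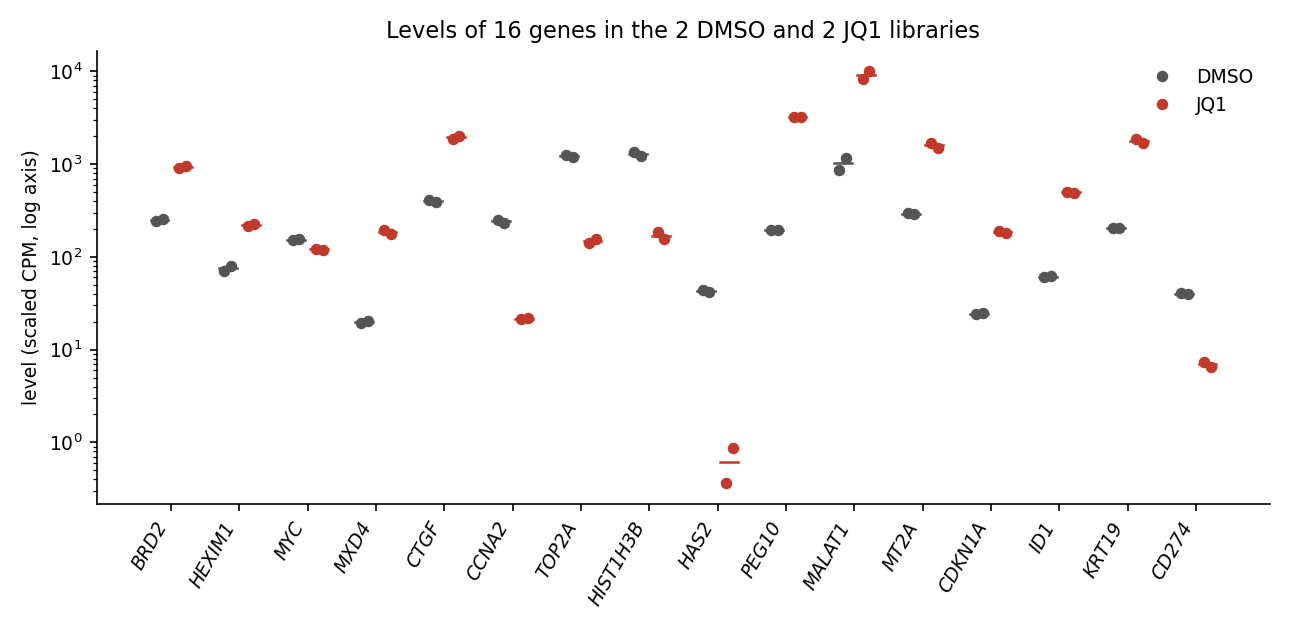
Levels of 16 genes in scaled CPM on a log axis, with a point for each of the 2 DMSO (grey) and 2 JQ1 (red) libraries and a bar at the group mean. Replicates lie close together, the groups are apart for every gene drawn, and the smallest shift is that of MYC.

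The largest falls were in clustered histone genes and a few surface and signalling genes. HIST1H2BM, a core histone gene of the large cluster, went from 69.5 and 67 with DMSO to 1.24 and 1.44 with JQ1 (limma log2 fold change -4.89, SE 0.141, adjusted p = 3.43e-17). HAS2, the main synthase of the matrix polymer hyaluronan, was at 43.8 and 41.9 with DMSO and 0.361 and 0.878 with JQ1. Its JQ1 level rested on 9 and 25 reads, and the groups lay far apart (limma log2 fold change -4.78, SE 0.107, adjusted p = 1.16e-18). FAT3, an atypical cadherin, fell from 68.6 and 63.9 to 1.97 and 2.0 (limma log2 fold change -4.49, SE 0.123, adjusted p = 1.65e-17). The calcium-regulated phosphodiesterase PDE1C (-3.59), the sorting receptor SORCS3 (-3.54) and the atypical E2F repressor E2F8 (-3.55) followed. The remaining 6 of the 12 largest falls were the histone genes HIST1H2AJ (-3.74), HIST1H2BA (-3.71), HIST1H2BE (-3.62), HIST1H3J (-3.5) and HIST1H2BL (-3.43) and the S and G2 phase cyclin CCNA2. CCNA2 was at 252 and 232 with DMSO and 21.2 and 22.2 with JQ1 (limma log2 fold change -3.42, SE 0.0888, adjusted p = 7.53e-18).

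The 12 largest rises had no such common family. EFR3B, which anchors a phosphatidylinositol kinase at the plasma membrane, stood at 2.01 and 1.82 with DMSO and 95.8 and 102 with JQ1 (limma log2 fold change 5.1, SE 0.127, adjusted p = 4.94e-18). The secreted chaperone clusterin, CLU, went from 2.2 and 2.37 to 80.7 and 72.1 (4.56). PEG10, an imprinted gene derived from a retrotransposon, was abundant with DMSO already. It went from 197 and 197 to 3245 and 3242, with replicates nearly equal (limma log2 fold change 4.03, SE 0.0513, adjusted p = 1.74e-22). NEAT1, the RNA scaffold of paraspeckles, rose from 26.5 and 36.3 to 431 and 474 (3.82), and MT1X, a metal-binding metallothionein, from 18.6 and 19.3 to 265 and 281 (3.78). AQP3, a channel for water and glycerol (3.7), TUBB3, the neuronal beta-tubulin (3.54), the nuclear receptor coactivator PNRC1 (3.54), the stress-inducible sestrin SESN3 (3.51) and BAIAP3, a relative of vesicle-priming proteins (3.79), were also among them. C9orf169 (4.22) and RNF224 (3.62), genes with little known function, complete the 12.

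In plain level, which is not per length and so only sums reads, the gains were led by EEF1A1 and MALAT1. EEF1A1, the translation elongation factor, was at 16812 and 16204 with DMSO and 29656 and 29641 with JQ1 (limma log2 fold change 0.84, SE 0.109, adjusted p = 5.85e-07). The rise disappears under quantile normalization, which gives the highest gene of every library the same value, and the many processed copies of this gene make its read assignment uncertain. MALAT1, a nuclear RNA of speckles, stood at 860.4 and 1179.6 with DMSO and 8347 and 10013 with JQ1 (limma log2 fold change 3.18, SE 0.184, adjusted p = 2.09e-12). The spread within both groups was wide for MALAT1, yet the lowest JQ1 library was far above the highest DMSO library. PLEC, the cytolinker plectin (4.84-fold), the glycolytic enzymes GAPDH (2.22-fold) and PKM (2.86-fold), the actin crosslinker FLNA (2.19-fold) and the calcium-binding S100A6 (3.66-fold) rose too. PLCG2 rose by 0.60 on the log2 scale, short of the threshold under quantile normalization. The losses in level were led by the chaperone HSPA8 (3900.5 and 3660.0 with DMSO and 1690.4 and 1767 with JQ1), the beta-tubulin TUBB (-1.12), the secreted matrix protein THBS1 (-1.35), the topoisomerase TOP2A (-3.03) and the histone genes HIST1H1E (-1.59), HIST1H3B (-2.92), HIST1H1C (-1.09) and HIST1H4C (-2.09).

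Genes of cell division fell together. All 45 genes of the mitosis list were called lower, against 36.3% of all genes, 44 of them by 2-fold or more, with a median log2 fold change of -2.48 and a range of -3.42 to -0.70. Their summed level went from 12640 and 12430 scaled CPM with DMSO to 2506 and 2616 with JQ1. TOP2A, which untangles DNA before chromosomes part, was at 1243 and 1208 with DMSO and 143 and 156 with JQ1, an 8.2-fold drop (limma log2 fold change -3.03, SE 0.0698, adjusted p = 1.62e-18). The mitotic kinases AURKA (346 and 333 with DMSO and 35.5 and 36.8 with JQ1) and AURKB (-3.17), the central spindle motor KIF23 (-2.91) and the proliferation marker MKI67 (274 and 309 with DMSO and 37.8 and 40.2 with JQ1; -2.87) showed the same separation of groups.

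Of 51 DNA replication genes, 50 fell, 36 of them by 2-fold or more, around a median of -1.51, and ORC4 of the origin recognition complex was the single rise (chosen for naming after its value was seen). The helicase subunits MCM2 (-2.01), MCM3 (-2.05) and MCM7 (-1.74), the initiation factor MCM10 (-2.59), GINS1 (-2.72) and the flap nuclease FEN1 (317 and 314 with DMSO and 64.3 and 57.7 with JQ1; -2.35) were the clearest. In the DNA damage list 30 of 34 fell (median -1.33), among them the Fanconi genes FANCD2 (-2.4) and FANCI (-2.14) and the recombination partner RAD51AP1 (-2.99), while the checkpoint kinase gene ATM did not pass.

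The regulators above these programmes moved in the same direction with exceptions. Of 18 E2F and RB family genes, 13 fell and 3 rose (median -1.12). E2F2, an activating E2F, went from 18.3 and 19.6 to 1.4 and 0.737 (-3.29), and MYBL2 and LIN9 of the complex that drives mitotic genes fell by 8.26-fold and 5.66-fold in mean level. E2F7, TFDP2 and LIN37 were the 3 that rose. Among the cyclins and kinases of G1 and S phase, all 3 D-type cyclins rose, CCND1 from 909 and 888 to 1356 and 1323 (limma log2 fold change 0.58, SE 0.0551, adjusted p = 6.4e-09), while the remaining 7 fell, led by the phosphatase CDC25A (-2.82), CCNE2 (-1.97) and SKP2 (-1.7), with CDK4 (-0.95) and CDK6 (-1.03). The inhibitors of the CIP/KIP family, which block cyclin-dependent kinases, all rose. CDKN1A (p21) was at 24.4 and 24.5 with DMSO and 192 and 182 with JQ1 (limma log2 fold change 2.88, SE 0.0667, adjusted p = 1.63e-18), CDKN1C (p57) went from 1.1 and 1.6 to 18.8 and 18.5 (3.07), and CDKN1B (p27) rose less (0.51). CDKN2C (-1.23) and CDKN3 (-1.37) fell.

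The clustered histone genes, taken by name, are mostly transcribed in S phase into mRNAs without a poly(A) tail. Such mRNAs were retained here because the RNA was not selected for poly(A). Of 42 clustered histone genes tested, 41 were called lower and none higher, 38 by 2-fold or more, with a median of -2.33. HIST2H2BC alone did not pass. These genes are near-identical copies, so how reads were split among them is uncertain, and the sums are firmer than the single genes. The summed level went from 19780 and 18250 to 5131 and 4522. By class, the H3 genes had the lowest median with the H2A genes (-2.75 over 6 genes and -2.76 over 11), followed by H4 (-2.09, 7 genes), H2B (-2.05, 15 genes) and the linker H1 (-1.09, 3 genes). The summed H3 level dropped from 3581 and 3266 to 556 and 485, the summed H1 level from 3813 and 3487 to 1553 and 1362. Replacement histones outside the clusters divided: the linker variants H1FX (2.0) and H1F0 (1.07) and H2AFJ (1.14) rose, whereas the centromeric CENPA (-2.95) and H2AFZ (-0.67) fell.

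The upstream sequences of 5 of these genes are shown because the histone and mitosis lists moved as blocks and differ in how often some short motifs lie near their start sites. Each is the 250 bases before the start that RefSeq annotates (GRCh38.p14, whereas the deposited values were made on hg19), read 5′ to 3′ on the gene's strand. Capitals mark the letters CCAAT in all of them, read on either strand like the other letters. Besides these they mark TATAAA, the letters of a TATA box, in the histone genes. In TOP2A and KIF23 they mark TTTGAA, the letters of the cell cycle homology region. Matches were marked at any distance from the start, and whether one acts as such an element was not tested. The marking is not a clean split: TOP2A also holds TATAAA and HIST1H3B also holds TTTGAA, both left in lower case. HIST1H2BM and CCNA2 had the largest fall of their lists, and the other 3 were picked after their matches were seen. HIST1H2BM is at chr6:27814772-27815021 on the plus strand, HIST1H3B at chr6:26032100-26032349 on the minus strand, CCNA2 at chr4:121823884-121824133 (minus), TOP2A at chr17:40417897-40418146 (minus) and KIF23 at chr15:69414099-69414348 (plus).
HIST1H2BM: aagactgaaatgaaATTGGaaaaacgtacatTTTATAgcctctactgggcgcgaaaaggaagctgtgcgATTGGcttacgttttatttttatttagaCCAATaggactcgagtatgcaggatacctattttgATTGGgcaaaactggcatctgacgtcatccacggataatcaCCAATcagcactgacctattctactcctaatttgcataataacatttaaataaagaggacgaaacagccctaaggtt
HIST1H3B: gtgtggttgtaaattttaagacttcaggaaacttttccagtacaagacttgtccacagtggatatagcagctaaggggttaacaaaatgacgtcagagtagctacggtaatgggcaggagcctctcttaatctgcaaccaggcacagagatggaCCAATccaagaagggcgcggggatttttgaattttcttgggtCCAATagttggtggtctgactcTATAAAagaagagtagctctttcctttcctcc
CCNA2: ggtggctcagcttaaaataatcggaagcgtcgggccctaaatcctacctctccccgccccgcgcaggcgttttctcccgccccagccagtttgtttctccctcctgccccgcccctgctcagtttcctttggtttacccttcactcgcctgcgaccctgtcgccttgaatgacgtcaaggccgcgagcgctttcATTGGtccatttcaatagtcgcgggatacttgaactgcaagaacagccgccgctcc
TOP2A: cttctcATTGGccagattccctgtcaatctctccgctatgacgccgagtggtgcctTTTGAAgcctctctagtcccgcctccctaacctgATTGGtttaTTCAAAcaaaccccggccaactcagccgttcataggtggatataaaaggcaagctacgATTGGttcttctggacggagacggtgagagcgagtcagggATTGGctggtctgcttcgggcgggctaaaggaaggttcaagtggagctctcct
KIF23: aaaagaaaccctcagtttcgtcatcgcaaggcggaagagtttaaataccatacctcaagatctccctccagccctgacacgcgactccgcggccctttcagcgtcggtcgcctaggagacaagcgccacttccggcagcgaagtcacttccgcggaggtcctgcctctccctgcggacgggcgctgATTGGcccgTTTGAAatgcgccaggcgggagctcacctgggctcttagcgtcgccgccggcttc
HIST1H3B holds the TATA box letters 32 bases before its start and 2 CCAAT, and HIST1H2BM holds 5 CCAAT and the TATA box letters on the other strand 219 bases before. TOP2A has 4 CCAAT and 2 TTTGAA, the nearer TTTGAA 151 bases before the start. KIF23 has a CCAAT and a TTTGAA within 64 bases of the start, and CCNA2 a CCAAT and no TTTGAA in this window.

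Across the lists, 8 motifs were searched on both strands in windows of 300 bases (the 250 before and 50 after a start): the TATA box (TATAAA), the TEAD site (GGAATG), the AP-1 site (TGACTCA), the E-box (CACGTG) and an NF-kB consensus, and, added after the responses were seen, the CCAAT box, the cell cycle homology region (TTTGAA) and an E2F site (TTTCGCGC). A gene counted if any of its windows held the motif, while the background is the share of all 35116 RefSeq windows. Of the 38 mitosis genes with a window, 27 held TTTGAA (71.1% against 15.2% of windows), and 29 held CCAAT (76.3% against 34.6%). Of 34 clustered histone genes, 27 held TATAAA (79.4% against 11.5%) and 29 CCAAT (85.3%). TTTGAA was not particular to the mitosis list. It was in 12 of the 34 histone genes (35.3%) and 6 of 16 E2F and RB family genes (37.5%), but in 2 of 44 replication genes (4.55%). The E2F site was in 10 histone genes (29.4% against 0.515%) and in 5 of 44 replication genes (11.4%), of which 27 held CCAAT (61.4%). In the mitosis list the other motifs were held by 8 genes for the TEAD site (21.1% against 14% of windows), 5 for the E-box (13.2% against 7.26%), and 1 each for the TATA box and the E2F site (2.63%), and the AP-1 site (4.95% of windows) and the NF-kB consensus (0.191%) had no match. CCAAT was also in 19 of 21 genes of the unfolded protein response (90.5%), most of which rose, so the letters did not go with a single direction of change. Windows matched only 78.1% of all genes tested, so no share is given for the whole set of responsive genes. A match describes the letters and does not show that a factor binds.

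**Figure D3:**
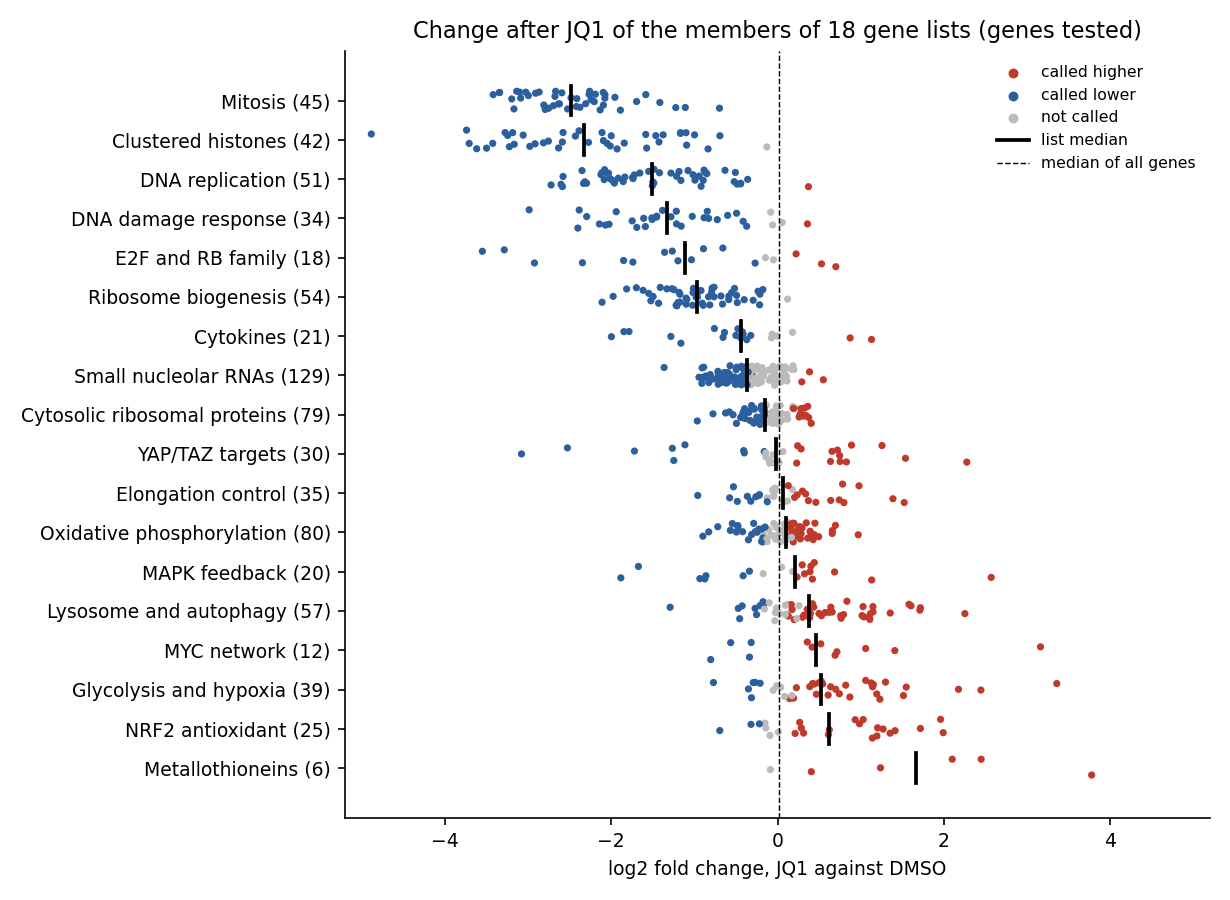
Log2 fold change, JQ1 against DMSO, of each member tested of 18 gene lists, red for called higher, blue for called lower and grey for not called, with a black bar at the list median and a dashed line at the median of all genes. Mitosis, clustered histones and DNA replication lie to the left, with medians of -2.48, -2.33 and -1.51, and the metallothionein list farthest to the right at 1.67.

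Genes that build ribosomes fell, more in the nucleolar machinery than in the ribosomal proteins. Of 54 ribosome biogenesis genes 53 were called lower and none higher, the transcription factor gene UBTF alone missing the test, with a median of -0.97. The nucleolar phosphoprotein gene TCOF1 was at 173 and 174 with DMSO and 43 and 43.6 with JQ1 (limma log2 fold change -1.98, SE 0.0596, adjusted p = 6.59e-17), the pseudouridine synthase DKC1 fell by 3.27-fold and the helicase DDX21 from 828 and 779 to 276 and 282 (-1.52). Among 79 cytosolic ribosomal protein genes, 38 fell and 12 rose, with none at 2-fold and a median of -0.15 (-0.26 to -0.09 over the alternatives), RPL29 (-0.58) and RPL13A (-0.49) among the falls. Ribosomal protein genes have many processed copies in the genome, so their counts are less certain. Small nucleolar RNAs, which guide the modification of ribosomal RNA, were lower in 71 and higher in 3 of 129 tested (median -0.36, and -0.54 to -0.20 over the alternatives). Most of them lie in introns of other genes, and reads of the host's unspliced RNA can enter these counts. SNORD46 had the largest fall (11 and 9.28 with DMSO and 3.61 and 3.02 with JQ1).

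Genes that bind metals and detoxify oxidants mostly rose. Metallothionein genes are close copies, so the split of reads among them is uncertain. MT2A, the most abundant metallothionein measured, stood at 295 and 288 with DMSO and 1687 and 1511 with JQ1 (limma log2 fold change 2.45, SE 0.0917, adjusted p = 1.81e-15), MT1E at 96.7 and 87.1 with DMSO and 398 and 396 with JQ1 (2.1) and MT1A at 0.486 and 0.69 with DMSO and 2.61 and 2.88 with JQ1 (1.24). With MT1X and the metal-sensing factor MTF1 (0.41) this made 5 of 6 genes higher, and the zinc exporter SLC30A1, which the same factor controls, did not pass (-0.09, limma adjusted p = 0.293). Of 25 NRF2 antioxidant genes, 18 rose and 3 fell, 10 rising by 2-fold or more. The thioredoxin reductase TXNRD1 went from 459 and 417 to 1731 and 1759 (limma log2 fold change 1.99, SE 0.0648, adjusted p = 2.07e-16), the ferritin light chain FTL from 1009.6 and 983 to 4094 and 3683 (1.96) and the autophagy adaptor SQSTM1 from 192 and 193 to 646 and 626 (1.72). NQO1 (1.14) and PRDX1 (1.2) rose too, and the cystine carrier gene SLC7A11 did not pass.

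Glycolysis, hypoxia and lysosome genes shifted the same way. Of 39 glycolysis and hypoxia genes, 28 rose and 6 fell (median 0.53). The mTORC1 inhibitor DDIT4 was at 20.2 and 25.8 with DMSO and 245 and 242 with JQ1 (limma log2 fold change 3.36, SE 0.0792, adjusted p = 2.13e-18), the stress gene NDRG1 went from 26.4 and 25.5 to 156 and 137 (2.45) and the aldolase ALDOC from 2.85 and 2.65 to 16.1 and 15.8 (2.18), whereas HK2, CA9 and VEGFA were among the 6 that fell. Of 57 lysosome and autophagy genes, 36 rose and 9 fell (median 0.38), with the autophagy kinase ULK1 from 6.42 and 7.04 to 37.1 and 34.6 (2.25), the sialidase NEU1 (1.71), the sphingomyelinase SMPD1 (1.61) and the ATG8 proteins GABARAPL1 (1.58) and GABARAPL2 (1.15). TFEB, the factor that drives lysosome genes, did not pass.

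The stress programmes were split. Of 31 genes of the ATF4 response 16 rose and 8 fell. Asparagine synthetase, ASNS, stood at 50.2 and 50.6 with DMSO and 324 and 328 with JQ1 (limma log2 fold change 2.67, SE 0.0879, adjusted p = 2.39e-16), and CHAC1 (2.11) and SESN2 (1.35) rose, while TRIB3 fell. In the unfolded protein response 14 of 22 genes rose and 5 fell, ERN1, a sensor in the endoplasmic reticulum, by 1.38 and HERPUD1 by 0.99 upward, and DNAJB11 (-0.89) among the falls. Heat shock and chaperone genes divided, 11 of 22 lower (50%) and 7 higher (31.8%), against 36.3% and 37.6% of all genes. HSPH1 fell from 252 and 247 to 79.4 and 86.2 (-1.58), as did the mitochondrial chaperones HSPD1 (-0.78), HSPE1 (-1.23) and HSPA9 (-1.05). The 7 that rose were HSF2, HSPA1A, HSPA1B, DNAJB1, DNAJB2, DNAJB4 and BAG3. Oxidative phosphorylation genes moved little in size, with none at 2-fold. Of 80 tested 29 were higher (36.2%, near the 37.6% of all genes) and 20 lower (25%, against 36.3%).

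In lipid metabolism single genes stood out from mixed lists. TM7SF2, a sterol reductase, went from 4.02 and 4.92 to 54.4 and 50.5 (limma log2 fold change 3.29, SE 0.084, adjusted p = 6.26e-18), in a cholesterol list with 15 of 31 higher and 9 lower in which the synthase gene HMGCS1 did not pass. The acyl-CoA synthetase ACSL5 went the other way, from 87 and 83.4 to 11.5 and 11.1 (limma log2 fold change -2.81, SE 0.0565, adjusted p = 3.37e-19), and DGAT1, which makes triglyceride, rose from 14.6 and 16.8 to 91.8 and 90.4 (2.46). The fatty acid list had 11 of 22 higher (50%) and 10 lower (45.5%), against 37.6% and 36.3% of all genes.

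Signalling feedback genes of the MAPK pathway diverged. DUSP6, the phosphatase of ERK, stood at 279 and 275 with DMSO and 1666 and 1632 with JQ1 (limma log2 fold change 2.57, SE 0.0551, adjusted p = 6.45e-19), and DUSP4 went from 544 and 577 to 1245 and 1216 (1.13). The Sprouty inhibitors SPRY1 (-1.67) and SPRY4 (-0.93) and the ETS factor ETV4 (52.6 and 52.9 with DMSO and 13 and 14.1 with JQ1; -1.89) fell. The list had 10 of 20 genes higher (50%) and 7 lower (35%), against 37.6% and 36.3% of all genes. Among EGFR family genes and ligands 8 of 13 rose and 3 fell, EREG from 44.2 and 42.2 to 104 and 108 (1.28) and ERBB2 from 49.7 and 53.6 to 98 and 95 (0.89) upward and the neuregulin NRG1 from 98.3 and 99.6 to 35.1 and 39.1 (-1.39) downward. Notch ligands split, JAG1 falling from 376 and 375 to 199 and 196 (-0.92) and JAG2 rising from 1.3 and 1.71 to 13.2 and 12.9 (2.49). In the Notch list 8 of 19 genes were higher (42.1%) and 4 lower (21.1%).

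ID1, the inhibitor of helix-loop-helix factors and a direct BMP target, had the largest rise of the TGF-beta and BMP list. It stood at 60.6 and 61.5 with DMSO and 506 and 491 with JQ1 (limma log2 fold change 3.01, SE 0.0676, adjusted p = 1.16e-18). FST, which traps activins, had the largest fall, from 140.3 and 129 to 14.5 and 16 (-3.06). TGFB1 rose from 20.9 and 22.8 to 77.8 and 74.3 (1.76) and TGFB2 fell from 82.3 and 84.6 to 24.7 and 24.5 (-1.72). The list had 16 of 38 genes higher (42.1%) and 10 lower (26.3%), against 37.6% and 36.3% of all genes.

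Among immediate-early and AP-1 factors, JUND rose from 45.6 and 51.8 to 259 and 266 (limma log2 fold change 2.41, SE 0.0867, adjusted p = 1.01e-15), and JUNB (1.25) and ATF3 (1.82) rose, while FOSL1, a partner of JUN proteins, fell from 76.1 and 83.4 to 43.8 and 46.9 (-0.80) with JUN (-0.55) and BATF3 (-1.89). The list had 8 of 17 genes higher (47.1%) and 6 lower (35.3%), against 37.6% and 36.3% of all genes. KLF factors had 8 of 15 higher, KLF2 from 14.1 and 17 to 59.7 and 59.1 (1.87) and KLF9 (1.17) among them, and 4 lower, with KLF11 at -2.09.

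Cytokine genes fell more often than they rose. Of 21 cytokines tested of 35 listed, 15 fell and 2 rose (median -0.44, and -1.22 to -0.16 over the alternative settings). LIF went from 43.2 and 43.9 to 10.5 and 9.76 (limma log2 fold change -2.0, SE 0.0772, adjusted p = 3.01e-15), and IL11, like LIF a cytokine of the gp130 family, from 81 and 83.7 to 22.7 and 23.6 (-1.79). IL18 and TNFSF9 were the ones that rose (0.87 and 1.13). In the NF-kB list 11 of 24 fell (45.8%) and 8 rose (33.3%). NFKB1 fell from 69 and 68.9 to 29.5 and 28.6 (-1.22), BIRC2 from 236 and 214 to 101.0 and 108 (-1.09) and ICAM1 by -1.26, while RELA did not pass. Interferon-stimulated genes divided, 19 of 50 higher (38%) and 22 lower (44%), against 37.6% and 36.3% of all genes. Their median was -0.04, with a sign that turns under upper-quartile scaling and without JQ1 replicate 2. IRF7 went from 13.1 and 13.8 to 86.2 and 75.7 (2.5) and ISG15 from 31.2 and 28.8 to 97.2 and 83.1 (1.55). IFI6 (1.71) rose too, and OAS3 (-1.77) and GBP1 (-1.3) fell.

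CD274, the gene of the immune checkpoint ligand PD-L1, was at 40.6 and 39.6 with DMSO and 7.38 and 6.46 with JQ1, a 5.79-fold fall (limma log2 fold change -2.38, SE 0.106, adjusted p = 2.92e-14). The antigen presentation list that holds it had 11 of 24 genes higher (45.8%) and 8 lower (33.3%). HLA-E (0.84) and TAP1 (0.99) rose, and TAP2, the partner of TAP1 in the peptide transporter, fell from 141 and 143 to 67.8 and 68.6 (-1.05) with the immunoproteasome subunit PSMB8 (-1.01).

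At the cell surface and in the matrix, the fall of HAS2 stood beside falls of CD44, the receptor of hyaluronan (359 and 343 with DMSO and 194 and 208 with JQ1; limma log2 fold change -0.80, SE 0.0673, adjusted p = 7.86e-10), and of the second receptor HMMR (-2.64), which is also a mitotic gene. The hyaluronidase HYAL2 rose (0.44) and HAS3 did not pass. Of 34 laminin and collagen genes 17 fell and 7 rose, LAMB1 from 53.4 and 55.6 to 14.5 and 13.7 (-1.88), COL4A1 (-1.43) and COL6A3 (-2.36) downward and LAMB2 from 189 and 206 to 440.3 and 432 (1.14) upward. The integrin gene ITGA3 rose from 796 and 811 to 2452 and 2339 (1.57). Of 16 integrin genes 7 were higher and 7 lower (43.8% each), near the shares of all genes.

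The plasminogen activators, proteases that act outside the cell, moved in opposite directions. PLAT (tPA) stood at 141 and 138 with DMSO and 962 and 907 with JQ1 (limma log2 fold change 2.74, SE 0.0562, adjusted p = 3.8e-19). PLAU (urokinase) was at 488 and 485 with DMSO and 112 and 109 with JQ1 (limma log2 fold change -2.12, SE 0.0655, adjusted p = 9.28e-17). The protease and inhibitor list had 16 of 28 higher and 9 lower, with MMP15 (2.98), TIMP2 (1.53) and SERPINE2 (1.67) among the rises. Of 25 angiogenic genes 14 fell and 8 rose. The growth factors FGF1 (-2.54) and FGF5 (-2.07) fell while the receptors FGFR1 (1.04) and FGFR3 (1.78 and 2.1 with DMSO and 31.9 and 27.5 with JQ1; 3.38) rose. Actin and SRF target genes were even and near the shares of all genes (18 of 41 higher, 16 lower). FLNC rose from 540.3 and 576 to 1566 and 1637 (1.52) and ACTN1 fell from 537 and 541 to 241 and 253 (-1.12).

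KRT8, KRT18 and KRT19, keratins of simple epithelia, rose in this mesenchymal line, while KRT7, another of that kind, did not pass the test. KRT19 stood at 204 and 207 with DMSO and 1877 and 1696 with JQ1 (limma log2 fold change 3.11, SE 0.063, adjusted p = 3.37e-19), KRT8 went from 523 and 534 to 2265 and 2025 (2.02) and KRT18 from 635 and 617 to 1687 and 1633 (1.41). Of 12 luminal markers 6 rose and 2 fell, and their sum went from 1478 and 1476 to 5954 and 5475. The luminal factor SPDEF fell (21.7 and 22.7 with DMSO and 4.97 and 3.79 with JQ1; -2.11), AGR2 rose from a low level (1.51), and MUC1, TFF1, TFF3 and CLDN3 did not pass. GATA3 and FOXA1 were near 0 in both groups, as given above, and the part of luminal cells in these rises was not tested. In the list of epithelial-mesenchymal genes 7 of 13 rose and 5 fell: the mesenchymal factor ZEB1 fell from 129.6 and 128 to 62.7 and 66.2 (-0.99), the epithelial EPCAM fell (-1.29), and CDH11 (0.52) and S100A4 (1.46), both mesenchymal, rose.

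Among BCL2 family genes, which set the threshold of apoptosis, 5 of 15 rose and 6 fell, near the shares of all genes. BCL2 was at 22 and 19.9 with DMSO and 4.05 and 3.37 with JQ1 (limma log2 fold change -2.22, SE 0.119, adjusted p = 5.76e-13), BCL2L1 (BCL-xL) rose from 372 and 380.3 to 698 and 664 (0.85), the killer genes BBC3 (1.7) and BMF (1.34) rose and BID (-1.13) and BAX (-0.63) fell.

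Chromatin modifier genes fell in 40 and rose in 26 of 77 cases. The maintenance methylation partner UHRF1 went from 229 and 237 to 46.4 and 39.6 (-2.42), the histone methyltransferases EZH2 (-1.73), WHSC1 (-1.71) and SETD8 (-1.25) fell, and the deacetylases HDAC5 (1.73) and SIRT2 (1.7) rose. Of 12 nuclear noncoding RNAs tested, 8 rose and none fell, NEAT1 and MALAT1 far more than KCNQ1OT1 (0.49) or RPPH1 (0.52, short of the threshold under quantile normalization).

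YAP/TAZ target genes did not move as a group with JQ1. Of 30 targets 13 were called higher, 9 lower and 8 neither, close to the shares of all genes, with a median of -0.01 that changes sign in 5 of the 17 alternative settings. The most used markers rose. CTGF, a secreted matricellular protein, stood at 415 and 393 with DMSO and 1889 and 2036 with JQ1 (limma log2 fold change 2.28, SE 0.0702, adjusted p = 9.28e-17). CYR61, its relative, was at 374 and 378 with DMSO and 621 and 642 with JQ1 (limma log2 fold change 0.75, SE 0.0534, adjusted p = 6.05e-11), and ANKRD1, a nuclear ankyrin protein, went from 934 and 899.8 to 2141 and 2243 (1.26). In each of these genes both JQ1 libraries were above both DMSO libraries. AMOTL2, a target that also restrains YAP, rose from 185 and 194 to 299 and 292 (0.64), and the receptor kinase AXL from 1369.8 and 1366 to 2355 and 2255 (0.75).

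Other targets of the list fell. EDN1, the vasoactive peptide endothelin, was at 30.6 and 30.3 with DMSO and 2.53 and 2.91 with JQ1 (limma log2 fold change -3.08, SE 0.0992, adjusted p = 1.82e-16), FJX1, a secreted kinase-like protein, went from 60.1 and 62.7 to 9.95 and 9.69 (-2.53), and TGFB2 fell as given above. YAP1 itself stood at 191 and 181 with DMSO and 101.5 and 105 with JQ1 (limma log2 fold change -0.84, SE 0.0668, adjusted p = 3.36e-10) and WWTR1, the gene of TAZ, at 81.8 and 82.3 with DMSO and 66.5 and 63.9 with JQ1 (limma log2 fold change -0.33, SE 0.0644, adjusted p = 0.000115). In the wider Hippo and TEAD list 12 of 31 genes rose and 10 fell, close to the shares of all genes.

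With YAP/TAZ siRNA the same targets behaved differently. The siRNA effects given here are log2 fold changes of the 4 libraries of both mixes against the 2 control siRNA libraries, and share no library with the JQ1 comparison, while the times differ (24 h for JQ1, 48 h for YAP/TAZ siRNA and 72 h for BRD siRNA). CTGF changed by -3.84, CYR61 by -3.73 and ANKRD1 by -4.42 with YAP/TAZ siRNA, and by 1.42, 0.47 and 0.86 with BRD siRNA. The median over the 30 targets was -0.82 with YAP/TAZ siRNA, 0.16 with BRD siRNA and -0.01 with JQ1. The JQ1 effect minus the YAP/TAZ siRNA effect was called higher in 20 and lower in 8 of the 30, against 30.9% and 32.4% of all genes.

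The wider sets of genes that the siRNAs lowered mostly fell with JQ1 too. Of the 765 genes called and lowered at least 2-fold by both YAP/TAZ mixes, 700 (91.5%) were also called lower with JQ1 and 32 higher, with a median of -1.28. Of the 796 genes lowered by BRD siRNA, 695 (87.3%) were lower and 31 higher with JQ1 (median -1.26). The count of those higher was 16 with a pseudocount of 4, 69 with 0.25, 84 with DESeq2 and 98 with edgeR. These shares stand beside 36.3% of all genes lower with JQ1. Leaving out the genes of the cell cycle, histone, repair and nucleolar lists left 575 and 657 genes, of which 88.7% and 84.6% were lower with JQ1. Only members of those lists were removed, so other genes of dividing cells can remain. Whether the overlap reaches beyond such genes was not tested. Of the genes raised by the siRNAs, against 37.6% of all genes, 391 of 455 raised by BRD siRNA (85.9%) were higher with JQ1, and 479 of 777 raised by YAP/TAZ siRNA (61.6%).

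Across all 13674 genes the JQ1 effect had a Pearson r of 0.63 (Spearman rho 0.595) with the BRD siRNA effect and 0.541 (rho 0.507) with the YAP/TAZ siRNA effect, given as a description across genes, which are not independent. Of 8103 genes called with JQ1 and with BRD siRNA, 6601 had the same direction and 1502 the opposite. With YAP/TAZ siRNA it was 6445 and 1843 of 8288. The difference between the JQ1 and BRD siRNA effects passed the test in 8218 genes (60.1%), and that between the JQ1 and YAP/TAZ siRNA effects in 8662 (63.3%). By 2-fold or more, the JQ1 effect was above that of BRD siRNA in 7.02% and below it in 4.3% of genes, and above that of YAP/TAZ siRNA in 6.9% and below it in 9.13%. Agent, time and solvent differ between these comparisons, and transfection may differ too, so their parts cannot be told apart.

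**Figure D4:**
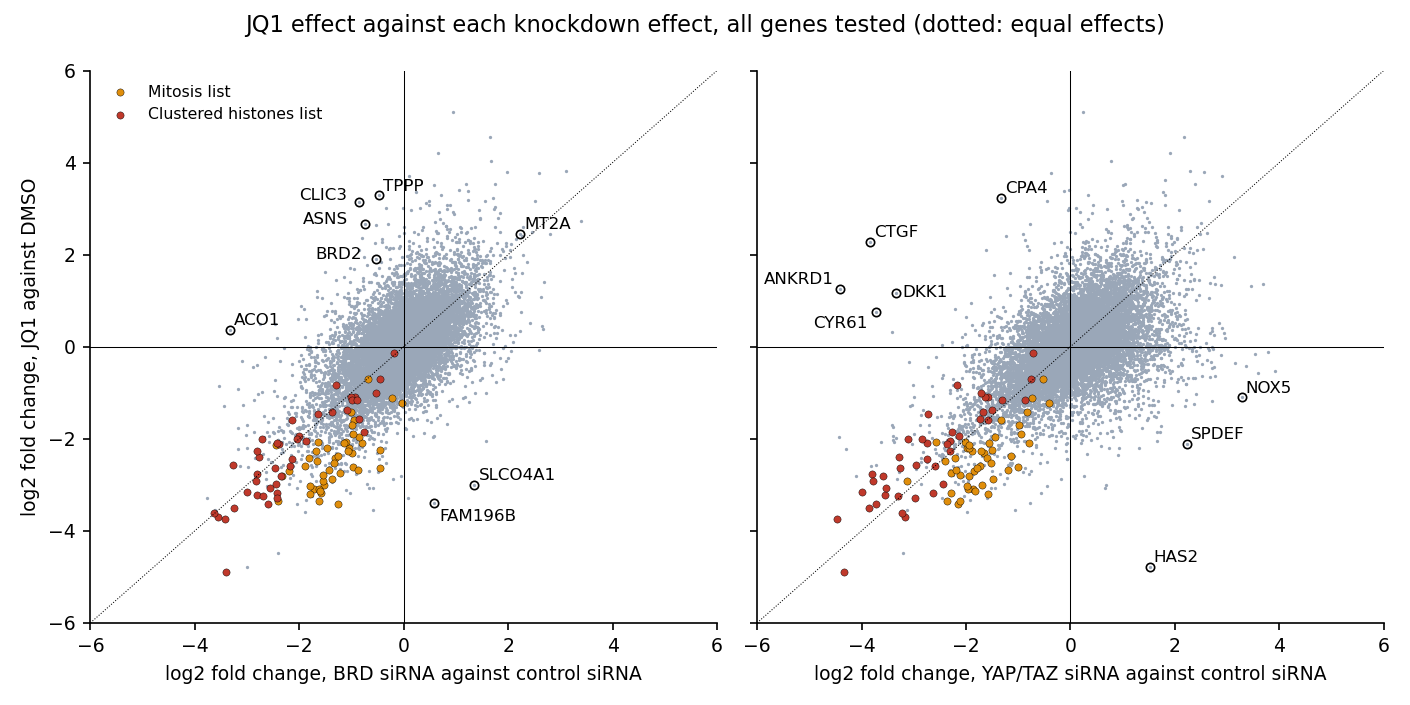
The log2 fold change of each gene with JQ1 (vertical axis) against its log2 fold change with BRD siRNA (left) or YAP/TAZ siRNA (right), with named genes marked. The points spread along a rising diagonal; in the right panel CTGF, ANKRD1 and CYR61 lie at the upper left, lowered by YAP/TAZ siRNA and raised by JQ1, and HAS2 at the lower right.

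BRD2 and BRD3 differed between the drug and the siRNA. BRD2 rose with JQ1 and changed by -0.53 with BRD siRNA (difference 2.44, SE 0.085, limma adjusted p = 7.45e-15), and BRD3, at 0.28 with JQ1, changed by -1.58 with the siRNA (difference 1.86, SE 0.114, limma adjusted p = 2.92e-11). HEXIM1 rose with all 3 agents, by 1.52, 1.27 with BRD siRNA and 1.01 with YAP/TAZ siRNA. MYC fell with JQ1 and changed by 0.15 with BRD siRNA and -0.72 with YAP/TAZ siRNA.

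The fall of mitotic genes was deeper with JQ1. The list median was -2.48 with JQ1, -1.33 with BRD siRNA and -1.79 with YAP/TAZ siRNA, and the difference from BRD siRNA was called lower in 43 of 45 genes, against 29.9% of all genes, and higher in 1. The difference from YAP/TAZ siRNA was lower in 36 and higher in 2. CCNA2 changed by -3.42 with JQ1, -1.27 with BRD siRNA and -2.15 with YAP/TAZ siRNA. Clustered histones did not share this order, with medians of -2.33, -2.41 and -2.74. DNA replication genes lay at -1.51, -1.59 and -1.87. Ribosome biogenesis had a median of -0.34 with BRD siRNA, and the JQ1 effect was lower in 41 of 54 genes.

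ASNS, CHAC1 and ID1 rose with JQ1 but not with the siRNAs. ASNS, at 2.67 with JQ1, changed by -0.74 with BRD siRNA and -0.78 with YAP/TAZ siRNA (difference from BRD siRNA 3.41, SE 0.116, limma adjusted p = 5.53e-15). CHAC1 changed by -0.85 and -0.79 with the siRNAs, and ID1 by -0.34 and 0.11, the last of these short of the threshold. Over the 31 ATF4 genes the difference from BRD siRNA was called higher in 20, against 30.2% of all genes. MT2A rose with JQ1 and BRD siRNA alike (2.45 and 2.23; difference 0.22, SE 0.121, limma adjusted p = 0.126, which misses the threshold and does not show equality) and fell with YAP/TAZ siRNA (-0.92). FOSL1 changed by -0.80 with JQ1, 0.88 with BRD siRNA and -2.16 with YAP/TAZ siRNA. HAS2 fell with JQ1 and BRD siRNA (-2.99) and rose with YAP/TAZ siRNA (1.52).

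The level and the structure of a gene went with its response only weakly, apart from a few classes. Protein-coding genes were divided into 5 groups of equal size by genomic span (GENCODE release 29). In the group of the shortest genes 40.4% were called higher, in that of the longest 39.5%, and in both 35.6% were lower. By mean level over the 14 libraries, the lowest of 5 such groups had the fewest calls, 30.5% higher and 22.7% lower, and the highest had 39.5% and 40.6%. Single-exon protein-coding genes outside the histone list rose in 83 (47.2%) and fell in 49 (27.8%) of 176, with a median of 0.23 against 0.00 in the 12211 genes with more exons. Genes of the snoRNA type fell in 61 (52.6%) and rose in 4 (3.45%) of 116. Antisense genes rose in 74 of 196 (37.8%), near the 37.6% of all genes, and fell in 38 (19.4%, against 36.3%). Whether counting used strand is not stated, so their reads and those of the partner gene may not be separate.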

How the data were processed

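The deposited table holds 1 value for each of 13734 genes in each of 14 RNA-seq libraries. Per the submitters' processing notes, CASAVA 1.8.4, TopHat2 2.0.5, HTSeq 0.6.0, edgeR and R 3.0.0 were used with genome build hg19, with roles and order not given in the sources used here. As a signal unit, the deposited values are CPM with a further scaling whose kind is not stated (column sums 903627 to 1098052). All values were whole multiples of 1 read (tolerance 0.01), which gave the read counts and a depth of 15741695 to 37311326; that the values are scaled and not plain CPM differs from what the design assumed as its first case.

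Tests covered genes that reached a value of 1 in 2 or more libraries. They were made with limma 3.58.1 in R 4.3.3 on log2(value + 1), fitting the means of the 7 groups over all 14 libraries, variances moderated with a trend, 2-sided, adjusted by Benjamini-Hochberg over all genes tested. The spread is thus shared by all groups. Alternatives used other pseudocounts, filters, scalings, the 4 libraries alone, a replicate block, each library left out, and edgeR 4.0.16 and DESeq2 1.42.0 on the recovered counts.

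The comparison and all gene lists were chosen with earlier results of these data known. Genes were named by a rule: a set of BET, MYC and YAP/TAZ genes, the 12 largest log2 changes and 8 largest level changes each way, up to 6 genes a list by moderated statistic, all elongation and MYC network genes, and the 5 largest effect differences each way. Not all are printed, and some genes named without a value fall outside it and were chosen after their values were seen. Histone classes, the motifs named as added, gene types and exon classes were also chosen after seeing the data. The same holds for the sets raised by siRNA and those without the cell cycle, histone, repair and nucleolar lists. It also holds for the list medians under siRNA and the genes drawn by library. Promoter windows and RefSeq symbols (GRCh38.p14) served for sequence and names only; 13453 of the symbols matched. Protein sequences were not used here, and some items are not reported here.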

Additional observations from a re-analysis of the deposited data

Results flagged for a closer look

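In 15 genes the JQ1 effect differed from an siRNA effect by more than in nearly all others, by the test of the difference in limma, and these were picked for the size of that difference. Against BRD siRNA, the transporter SLCO4A1 (-4.36, SE 0.13, limma adjusted p = 7.8e-16) went from 51 and 53.5 to 6.78 and 4.67 with JQ1 and changed by 1.35 with BRD siRNA. FAM196B (-3.97, SE 0.146, limma adjusted p = 1.65e-14) went from 52.7 and 48.1 to 3.85 and 3.93, and LOC100127888 (-3.63, SE 0.134, limma adjusted p = 1.65e-14) from 14 and 17.1 to 3.61 and 2.46. CLIC3, a chloride channel family gene, was higher by 3.99, going from 5.28 and 4.45 to 52.7 and 48.1, and the tubulin-binding TPPP by 3.77, from 0.162 and 0.359 to 12.2 and 10.4. ACO1, the cytosolic aconitase that also regulates iron, differed by 3.7, with a change of -3.33 with BRD siRNA and 0.37 with JQ1.

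Against YAP/TAZ siRNA, HAS2 differed by -6.29, the oxidase NOX5 by -4.38, SPDEF by -4.35, LOC101927318 by -4.46 and the ephrin receptor EPHB6 by -4.16. LOC101927318 and EPHB6 were below 1 scaled CPM in all 4 DMSO and JQ1 libraries, so their differences rest on the siRNA libraries (3.92 and 3.59). CTGF differed by 6.11, ANKRD1 by 5.68, the carboxypeptidase CPA4 by 4.56 and the WNT inhibitor DKK1 by 4.51, each lowered by YAP/TAZ siRNA and raised by JQ1.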

How the results depend on the processing

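For the counts over many genes, 373 comparisons with an alternative stayed within 1.5 times of the value given and 11 did not. With a pseudocount of 4 the genes at least 2-fold higher with JQ1 numbered 749, the JQ1 effect was at least 2-fold above that of BRD siRNA in 505 genes and below it in 380, and below that of YAP/TAZ siRNA in 731. With edgeR on the recovered reads the count above BRD siRNA was 1475. The genes lowered by BRD siRNA but called higher with JQ1 numbered 69 and 16 with pseudocounts of 0.25 and 4, 98 with edgeR and 84 with DESeq2, over sets that each setting redefines. Genes of the snoRNA type called lower numbered 27 where genes below a level of 5 were not tested, and those called higher between 1 (without JQ1 replicate 1) and 4 over the libraries left out. Leaving out a library leaves 1 in its group, assumed to vary like the other groups, and gave 4706 to 4751 genes called higher and 4513 to 4595 lower. EEF1A1 had a log2 fold change of -0.0 under quantile normalization. CDK9, called in no setting, had 0.0041 with upper-quartile scaling, 0.0023 with quantile normalization, and -0.0856 to 0.0065 over the libraries left out; the cause was not tested. CCNT1 passed the threshold in 3 alternatives and GATA3 in 6. HAS2 rested on 9 and 25 reads in the JQ1 libraries, so depth limits the size of its fall.

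The replicate numbers share only a number: the deviations of JQ1 and DMSO libraries with the same number had a correlation of 0.032 over genes, with 2 pairs. With the replicate block 5150 genes were called higher and 4967 lower, and 5433 and 5269 with the block in the 4 libraries alone.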

Other observations

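Further gene families, chosen after the responses were seen, were described in the same way. Genes of the proteasome and the mitochondrial ribosome fell in most cases: 26 of 37 proteasome subunit genes were called lower and 4 higher (median -0.34), and 55 of 76 mitochondrial ribosomal protein genes lower and 7 higher (median -0.42). Of 19 nucleoporins, which build the nuclear pore, 18 fell and none rose (median -0.89), and of 20 splicing factors of the SR and SF3 families 14 fell and 1 rose. Kinesins, several of them also in the mitosis list, fell in 15 and rose in 7 of 26.

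Other families rose or divided. RAB GTPases, which direct vesicles, rose in 26 and fell in 13 of 50 genes, S100 proteins rose in 8 and fell in 2 of 11 (median 0.34, and 0.20 to 0.46 over the alternatives), and ephrins with their receptors rose in 10 and fell in 4 of 18. Tubulins fell in 7 and rose in 4 of 14, and keratins rose in 4 and fell in 1 of 8, every change of 2-fold or more in keratins being a rise. These counts stand beside 37.6% of all genes called higher and 36.3% lower.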
